A study of Mus musculus with 28 samples.

Results

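CReCOM mice carry a Cre transgene aimed at deleting caspase-8 in CD11c-expressing cells, and the comparison described here asked how macrophages sorted from their brains differed from those of control mice at 5-6 months of age. It used 6 of the 28 RNA-seq libraries of the series, 3 from CReCOM mice (replicates 3, 4 and 5) and 3 from WT mice (replicates 1, 2 and 6), chosen by the labels of genotype, cell type and age. The CReCOM mice carried the CD11c-Cre transgene on a Casp8flox/flox background, and the WT mice carried the same Casp8flox/flox alleles without Cre, so both groups had the floxed allele and none had an unmodified Casp8. All mice were female, brains were perfused and cleared of meninges, and macrophages were sorted as CD11b+CD64+CD45hi cells. The other libraries used for comparison were 3 CReCOM and 3 WT macrophage libraries from mice of 11-12 months, and 4 CReCOM and 4 WT microglia libraries from mice of 5-6 months, with the same genotypes and sex. For the microglia an age field disagrees with the titles, which were followed here.

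Several features of the model limit the groups. Cre was driven by the promoter of CD11c, encoded by Itgax, an integrin subunit of dendritic cells and many macrophages that some natural killer (NK) cells also carry. By the study's methods, the deletion was seen in microglia of CReCOM mice but not in the macrophages of the brain, and conventional dendritic cells outside the brain were where it started disease, so the label CReCOM names the mouse and not the state of Casp8 in the sorted macrophages. The mice differed from controls by the transgene itself as well as by what it deletes. The labels number the libraries as separate replicates without saying how many mice each held. The study's text describes RNA-seq of mice that had behavioural tests, with scores for each animal, and the figures here count each library as a mouse. The p-values measure the spread between these libraries. The authors left out samples not only for poor brain processing, RNA or alignment but also for a mouse's failure to respond in behavioural tests and for its systemic disease by spleen and lymph node weight, so the mice were in part selected on traits related to disease. Because a sorted population was read as bulk RNA, fewer cells of a type and less RNA per cell cannot be told apart in any value below.

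Caspase-8 is the protease that starts apoptosis downstream of death receptors, and it also holds back necroptosis by cutting the kinases RIPK1 and RIPK3. Macrophages of the brain outside the microglia include border-associated cells and cells derived from blood monocytes, and the sort for CD64 was meant to leave out monocytes without it, while the study's own analysis gated neutrophils by Ly6G and NK cells by NK1.1. NK cells kill infected or stressed cells with granzymes released from granules, neutrophils carry antimicrobial proteins such as S100A8 and S100A9, and interferon-stimulated genes are switched on in many cell types through signals from interferon receptors.

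The libraries were read from the 3′ end of transcripts, and values are given as counts per 1000000 reads assigned to genes (CPM), always in the order CReCOM replicates 3, 4 and 5, then WT replicates 1, 2 and 6. The CReCOM libraries were deeper (6309385 to 8344189 counts) than the WT libraries (4045036 to 4635737), so that 3 counts corresponded to 0.360 to 0.742 CPM across the 6. Log2 CPM correlated at 0.758 to 0.811 between CReCOM libraries, 0.622 to 0.667 between WT libraries and 0.624 to 0.716 across genotypes, over genes that are not independent of each other. CReCOM replicate 5 stood apart by its haemoglobin and other erythroid genes, which summed to 16160 CPM against 2.2 to 31.1 CPM in the other 5 libraries. The biological coefficient of variation across the 12 macrophage libraries was 0.747.

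Casp8 itself (ENSMUSG00000026029, chr1:58795374-58847503, GRCm38) was at 47.9, 73.7 and 42.3 CPM in CReCOM and at 71.0, 64.3 and 63.3 CPM in WT. The ranges overlapped, and the log2 fold change of CReCOM over WT was -0.28 (SE 0.64, adjusted p = 0.998, edgeR quasi-likelihood test). Reads at the 3′ end can lie outside the exons removed by Cre, so this level does not by itself check the labels. The study did read Casp8 deletion from RNA-seq as well, in microglia and not in infiltrating macrophages. Itgax was at 96.5, 98.9 and 147 CPM in CReCOM and 182, 142 and 73.8 CPM in WT (log2 fold change -0.21, adjusted p = 0.998). How much sequence around Itgax the CD11c-Cre transgene holds was not stated in the study's text. Among 6 tested genes from a list of Itgax and its neighbours none reached an unadjusted p under 0.05 with a fold over 1.5. In 1 of the 6 the CReCOM libraries were higher without overlap, as they were in 8.20% of all genes tested. Of 23 tested genes of the caspase-8 complex and of cell death, also none reached that p with that fold. Their median log2 fold change was 0.15, with 16 values above 0 and 7 below, and an example is Cflar, which encodes the caspase-8 regulator cFLIP (0.18).

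The markers of the sort were present in all 6 libraries. Ptprc, which encodes CD45, ran from 1518 to 2180.0 CPM, Itgam, which encodes CD11b, from 445 to 757 CPM, and Fcgr1, which encodes CD64, from 10.9 to 81.1 CPM. The summed level of 12 genes of the macrophage gate was 29392, 31071 and 23015 CPM in CReCOM and 26397, 25937 and 24587 CPM in WT (exact permutation test over the 6 libraries, two-sided p = 0.4). Homeostatic microglia markers summed to 884 to 1370 CPM in CReCOM and 1621 to 1705 CPM in WT, against 21851 to 27834 CPM in the microglia libraries of the same age. These low microglial levels were lower in each CReCOM library than in each WT library (exact permutation p = 0.1, the smallest value that 3 against 3 libraries can give). Over 18 marker lists, the sums of 6 did not overlap between genotypes, namely those of NK cells, T cells, neurons and homeostatic microglia, lower in CReCOM, and of neutrophils and classical monocytes, higher in CReCOM.

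**Figure D1:**
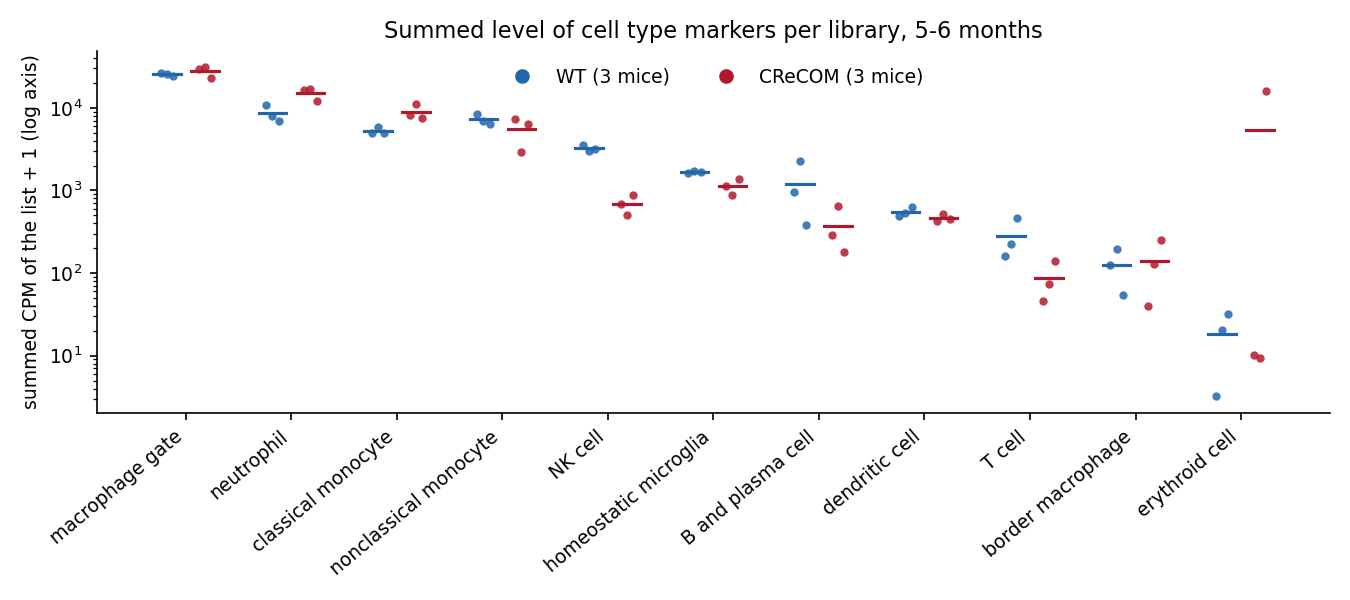
Summed CPM + 1 of lists of cell type markers (log axis) in the 3 CReCOM (red) and 3 WT (blue) macrophage libraries at 5-6 months, each point a library and each bar a mean. NK cell sums lie between 498 and 889 CPM in CReCOM and between 3015 and 3552 CPM in WT, while sums of the macrophage gate overlap.

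The test across 6272 genes called 3 genes lower in CReCOM than in WT macrophages, which is 0.0478% of the genes tested, and 0 genes higher (0%). A call required a Benjamini-Hochberg adjusted p under 0.1 and a fold over 1.5. At an unadjusted p under 0.05 alone, 202 genes were higher and 130 lower. With the fold added, hereafter the unadjusted threshold, 194 genes were higher (3.09% of those tested) and 126 lower (2.01%), and the smallest adjusted p of any higher gene was 0.368. DESeq2 on the same counts called 45 genes higher and 33 lower, and limma on log2(CPM + 1) called 0 higher and 3 lower. The median log2 fold change of all 6272 genes was 0.0016, with 3138 values above 0.

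All 3 called genes are markers of NK cells and other cytotoxic lymphocytes. Il2rb encodes the beta chain of the receptors for interleukin-2 and interleukin-15, Gzma encodes the granule protease granzyme A, and Nkg7 encodes a protein of cytotoxic granules. Each was over 5-fold lower in mean in CReCOM, and in each the highest CReCOM library lay below the lowest WT library.

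Il2rb (ENSMUSG00000068227, chr15:78479256-78495271, minus strand) was at 46.9, 43.9 and 45 CPM in CReCOM and 215, 209 and 308 CPM in WT. Its mean was 45.2 ± 1.51 CPM against 244 ± 55.6 CPM (SD, n = 3 each), 5.40-fold lower, with a log2 fold change of -2.44 (SE 0.39, adjusted p = 0.0456, edgeR). The 3 CReCOM libraries were almost level with each other, and most of the spread lay among the WT libraries. Gzma (ENSMUSG00000023132, chr13:113093825-113100981, minus strand) was at 146, 138 and 253 CPM in CReCOM and 1250, 875 and 916 CPM in WT. Its mean was 179 ± 64.0 CPM against 1014 ± 206 CPM (SD, n = 3 each), 5.67-fold lower, with a log2 fold change of -2.50 (SE 0.42, adjusted p = 0.0456). Nkg7 (ENSMUSG00000004612, chr7:43437073-43438249, plus strand) was at 37.1, 67.8 and 51.0 CPM in CReCOM and 307, 262 and 293 CPM in WT. Its mean was 52.0 ± 15.4 CPM against 287 ± 23.1 CPM (SD, n = 3 each), 5.52-fold lower, with a log2 fold change of -2.47 (SE 0.43, adjusted p = 0.0456). In the 8 microglia libraries of the same age Gzma and Nkg7 were at 0 CPM, and Il2rb was at 0 CPM in 7 and at 3.03 CPM in the other. The 3 calls depended on having all 6 libraries. None of the 3 genes was called without CReCOM replicate 3 (adjusted p 0.309 each), CReCOM replicate 4 (0.286 each), WT replicate 1 (0.114 to 0.245) or WT replicate 6 (0.131 each), only Il2rb (0.0709) without WT replicate 2, and only Gzma (0.0551) without CReCOM replicate 5.

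**Figure D2:**
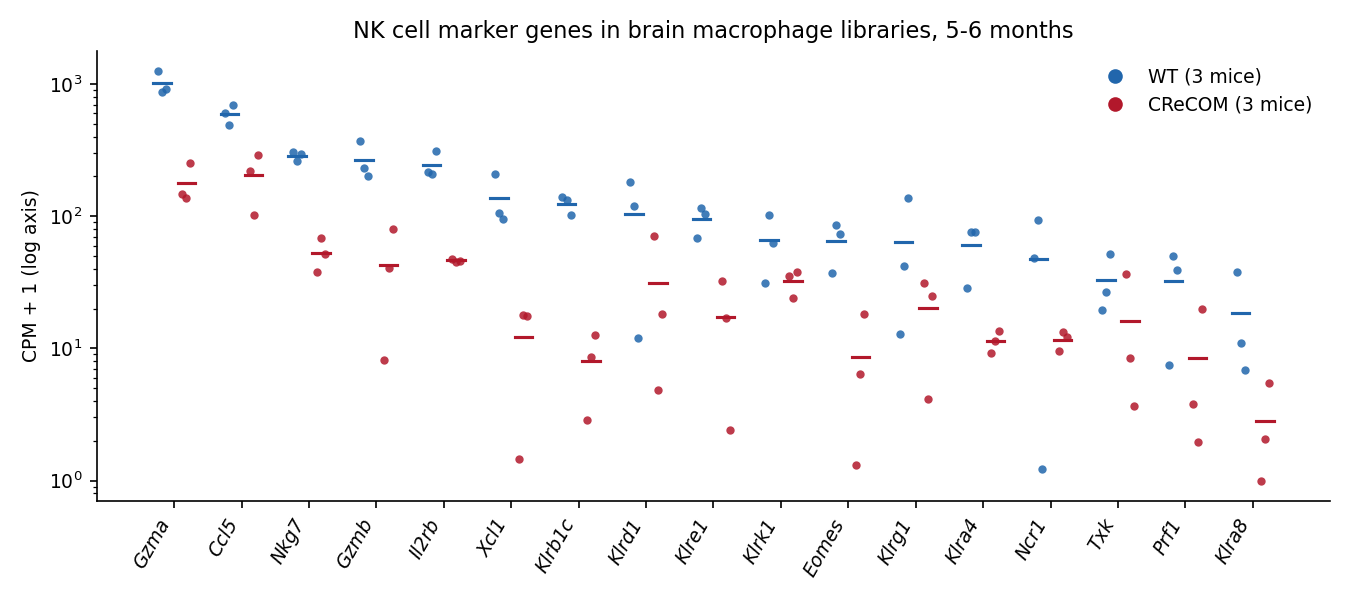
CPM + 1 (log axis) of the 17 NK cell markers in the 3 CReCOM (red) and 3 WT (blue) macrophage libraries at 5-6 months, each point a library and each bar a mean. All 17 have a lower mean in CReCOM, and the fitted log2 fold changes run from -4.12 for Klrb1c to -1.05 for Klrk1.

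The other NK cell markers were also lower in mean, although none of them passed the adjusted threshold. Of 17 markers, all tested, 17 had a negative log2 fold change, 9 were lower at the unadjusted threshold and 11 did not overlap between genotypes. Over all genes tested, 2.01% were lower at that threshold, 7.45% were lower without overlap and 8.20% higher without overlap. The median of the 17 was -2.47, and it stayed between -2.47 and -2.39 whichever of the 6 libraries was left out.

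Among receptors, Klrb1c, which encodes the NK1.1 antigen, was at 1.86, 7.67 and 11.7 CPM in CReCOM and 138, 132 and 101 CPM in WT, 17.4-fold lower in mean (log2 fold change -4.12, SE 1.02, adjusted p = 0.368). Klra4, a Ly49 receptor, was at 8.22, 10.3 and 12.5 CPM against 27.4, 75.1 and 75.4 CPM (-2.53, adjusted p = 0.528). Both had their 3 CReCOM libraries below all 3 WT libraries. Ncr1, which encodes the activating receptor NKp46, overlapped because WT replicate 6 was at 0.225 CPM, below the CReCOM libraries at 8.53, 12.2 and 11.1 CPM. Klra4 and Klra8 belong to a family of closely related genes, and Klrb1c overlaps another annotated gene on the same strand, so the counting could have divided their reads.

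Among effector genes, Gzmb, which encodes granzyme B, was at 7.14, 39.8 and 78.6 CPM in CReCOM and 368, 231 and 201 CPM in WT (-2.66, adjusted p = 0.73). Prf1, which encodes perforin, was low and overlapped, at 2.79, 0.959 and 18.7 CPM against 6.43, 48.8 and 38.5 CPM. The chemokine Ccl5 was at 220, 100 and 288 CPM in CReCOM and 606, 491 and 689 CPM in WT (-1.55, SE 0.42, adjusted p = 0.434). The chemokine Xcl1 was at 0.465, 16.9 and 16.5 CPM against 207, 104 and 95.0 CPM (-3.58, adjusted p = 0.565), and Eomes, a transcription factor of NK and memory T cells, at 0.310, 5.39 and 17.3 CPM against 36.1, 85 and 71.8 CPM (-3.07, adjusted p = 0.878). In each of these but Prf1 the genotypes did not overlap.

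Summed over the 17 markers, NK transcripts made 681, 498 and 889 CPM in CReCOM and 3552, 3015 and 3157 CPM in WT. The mean was 4.70-fold lower in CReCOM, 689 ± 196 CPM against 3242 ± 278 CPM (SD, n = 3 each, exact permutation p = 0.1). In microglia of the same age the same sum averaged 11.6 CPM in CReCOM and 15.6 CPM in WT. Markers of T cells, which share several cytotoxic genes with NK cells, had sums of 45.3, 73.6 and 138 CPM in CReCOM and 158, 227 and 459 CPM in WT. Of 16 T cell markers 5 were tested, and none passed the unadjusted threshold. Cd8a was at 0 in all 6 libraries, and Cd3e did not exceed 2.48 CPM. B cell and plasma cell genes summed to 181 to 654 CPM in CReCOM and 377 to 2247 CPM in WT, with overlap.

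The promoter of Gzma is shown because, of the 3 called genes, it is the one whose window holds the core of the interferon response element, the motif bound by interferon-activated factors. The sequence is from RefSeq. The window holds the 250 bases before the start on GRCm38.p6, chr13:113100982-113101231, minus strand. Capitals mark the core of the interferon response element, written GAAANNGAA, on either strand.
Gzma promoter: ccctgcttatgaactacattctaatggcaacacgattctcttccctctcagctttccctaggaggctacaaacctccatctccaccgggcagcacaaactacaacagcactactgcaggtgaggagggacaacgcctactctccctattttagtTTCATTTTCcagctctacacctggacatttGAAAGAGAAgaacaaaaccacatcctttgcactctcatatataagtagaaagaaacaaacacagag
It holds 2 matches, 1 on each strand. Across 27025 genes with such a window, 8.18% hold at least 1 match, and among the 4811 tested genes with a window 7.88% do. Il2rb has no entry in the table, and the Nkg7 window holds no match. Of 13 NK markers with a window, 3 hold a match. A match is a run of letters and not evidence of binding.

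Genes of the monocyte lineage leaned the other way. All 10 classical monocyte markers, genes typical of Ly6C-high blood monocytes, had log2 fold changes above 0, with a median of 0.86. Of the 10, 6 were higher at the unadjusted threshold, against 3.09% of all genes tested. Likewise 6 were higher without overlap, against 8.20%. None passed the adjusted threshold. Leaving out 1 library at a time kept the median between 0.65 and 0.92.

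Chil3, which encodes the chitinase-like protein Ym1 of monocytes and alternatively activated macrophages, was at 1197, 1465 and 542 CPM in CReCOM and 281, 362 and 377 CPM in WT (log2 fold change 1.64, SE 0.38, adjusted p = 0.368). Ly6c2, which encodes the surface protein that defines classical monocytes, was at 998, 1516 and 899 CPM against 448, 773 and 456 CPM (1.01, SE 0.29, adjusted p = 0.461). Hp, which encodes haptoglobin, was at 782, 701 and 513 CPM against 319, 338 and 302 CPM (1.05, adjusted p = 0.401). The genotypes did not overlap in these 3 genes or in Plac8, at 2649, 3550 and 2928 CPM against 1718, 1996 and 1713 CPM (0.74, adjusted p = 0.461). Ccr2, the receptor that brings monocytes into tissue, overlapped, with 357, 1021 and 601 CPM against 337, 527 and 400 CPM. Vcan had a larger fitted change of 2.24 that rested on CReCOM replicate 4, at 447 CPM against 45.9 and 78.8 CPM in the other 2 CReCOM libraries. Ly6c2 has close paralogs, so its reads may be shared with them.

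The sum of the classical monocyte markers was 8100, 11108 and 7538 CPM in CReCOM and 4935, 5862 and 5008 CPM in WT, 1.69-fold higher in mean (exact permutation p = 0.1). Nonclassical monocyte markers did not follow, with 4 of 10 values above 0, a median of -0.13 and overlapping sums of 2926 to 7233 CPM in CReCOM and 6334 to 8543 CPM in WT. Border macrophage markers were scarce, with 2 of 11 tested and sums of 38.9 to 247 CPM in CReCOM and 53.4 to 196 CPM in WT.

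Several neutrophil markers were higher in mean in the CReCOM libraries. Of 18 neutrophil markers 16 were tested, and 12 had log2 fold changes above 0, with a median of 0.83. At the unadjusted threshold 5 were higher, against 3.09% of all genes tested. That count of 5 became 2 without CReCOM replicate 3 or WT replicate 2, and 3 without CReCOM replicate 4 or WT replicate 6. S100a8 was at 6064, 6364 and 4257 CPM in CReCOM and 3798, 3126 and 2737 CPM in WT (0.78, SE 0.34, adjusted p = 0.878), and S100a9, its partner in calprotectin, at 5082, 5317 and 3752 CPM against 3515, 2357 and 1967 CPM (0.85, adjusted p = 0.736). Ngp, a granule protein of immature neutrophils, was at 2027, 1849 and 1798 CPM against 967, 901 and 815 CPM (1.08, adjusted p = 0.505). Lcn2, which encodes the iron-binding protein lipocalin-2, was at 342, 339 and 217 CPM against 148, 77.0 and 70.0 CPM (1.61, SE 0.46, adjusted p = 0.461).

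In these 4 genes every CReCOM library was above every WT library. Other members of the list varied. Retnlg was at 74.3, 229 and 57.7 CPM in CReCOM and 481, 277 and 117 CPM in WT (-1.28, adjusted p = 0.998), Cxcr2 at 6.83, 42.4 and 26.6 CPM against 24.2, 34.9 and 14 CPM (0.04), and Ly6g, the usual surface marker, at 4.97, 20.4 and 2.85 CPM against 0, 0 and 10.6 CPM (1.36, SE 2.13, adjusted p = 0.998). The summed level of the 18 markers was 16334, 16817 and 12210 CPM in CReCOM and 10943, 7961 and 7016 CPM in WT, 1.75-fold higher in mean (15120 ± 2532 against 8640 ± 2050 CPM, SD, n = 3 each, exact permutation p = 0.1). The part of such cells in the monocyte and S100 gene values was not tested.

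**Figure D3:**
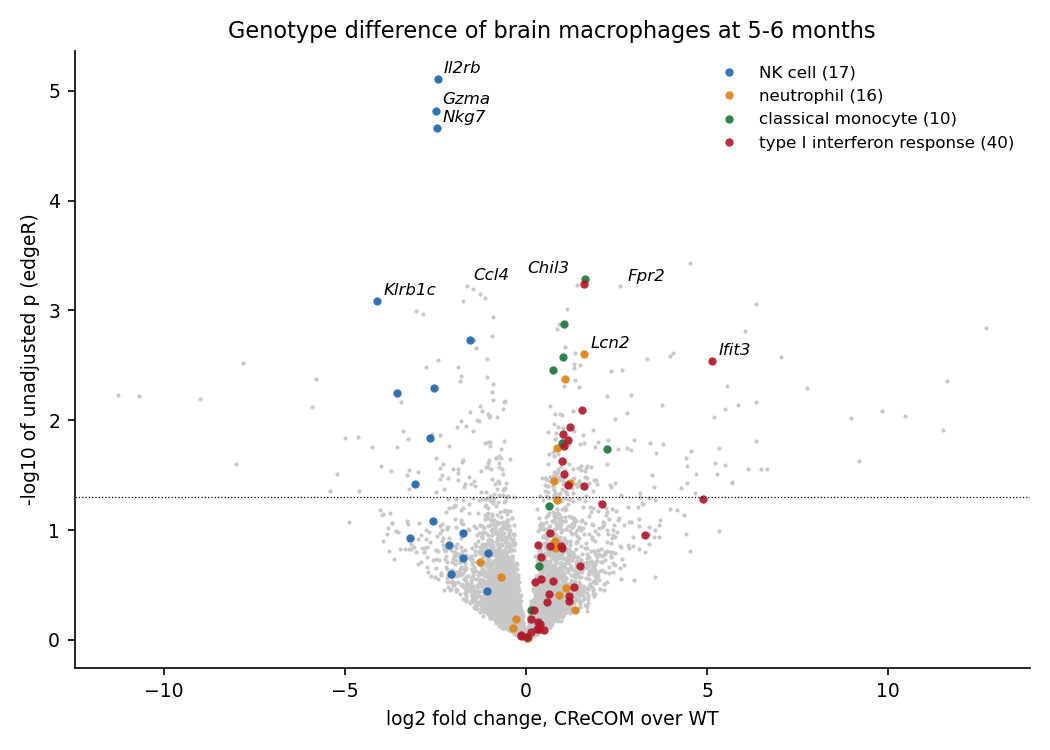
Log2 fold change of CReCOM over WT macrophages at 5-6 months (x axis) against -log10 of the unadjusted p of the edgeR test (y axis) for 6272 genes (grey), with 4 gene lists in colour. The NK cell markers all lie left of 0 and include the 3 called genes, and the dotted line is an unadjusted p of 0.05.

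Interferon-stimulated genes, which are raised in lupus, had mostly positive values without any call. Of 47 genes of the type I interferon response 40 were tested, and 38 of them had log2 fold changes above 0, with a median of 0.85. At the unadjusted threshold, 11 of the 40 were higher and 0 lower, and 8 were higher without overlap. Over all genes tested, 3.09% were higher at that threshold, 2.01% lower and 8.20% higher without overlap. The 11 became 4 without CReCOM replicate 5 and 6 without CReCOM replicate 4, while the median stayed between 0.70 and 0.91. Of the 15 tested interferon-gamma response genes 14 were above 0 and 3 were higher at the unadjusted threshold, with a median of 1.00. These 3 became 1 without CReCOM replicate 4 or without WT replicate 2.

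Rsad2, which encodes the antiviral enzyme viperin, was at 111, 104 and 289 CPM in CReCOM and 89.0, 28.5 and 57.0 CPM in WT (1.55, SE 0.52, adjusted p = 0.614). Bst2, which encodes tetherin, was at 158, 251 and 394 CPM against 124, 164 and 105 CPM (1.03, adjusted p = 0.726), and Isg15, a ubiquitin-like protein, at 89.2, 132 and 197 CPM against 92.2, 60.4 and 35.6 CPM (1.16, adjusted p = 0.878). Rsad2 did not overlap between genotypes, whereas Bst2 and Isg15 each had 1 CReCOM library inside the WT range.

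Ifit3 (ENSMUSG00000074896, chr19:34583531-34588731, plus strand), which encodes an RNA-binding antiviral protein, was at 7.29, 36.9 and 62.4 CPM in CReCOM and 0.247, 0.863 and 1.80 CPM in WT (5.14, SE 1.49, adjusted p = 0.461). The WT values stood at or near the level of 3 counts, so the size of this fold change is poorly fixed. Gbp2 and Gbp3, interferon-induced guanylate-binding proteins, were at 88.8, 195 and 66.1 CPM against 25, 30.0 and 65.1 CPM, and at 33.8, 71.5 and 23.3 CPM against 1.24, 1.94 and 15.1 CPM (adjusted p = 0.848 and 0.616). In both, WT replicate 6 came closest to the CReCOM libraries. The summed type I interferon genes overlapped, at 8208, 12654 and 11755 CPM in CReCOM and 7169, 8396 and 7685 CPM in WT.

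The Ifit3 promoter is printed as an example of a gene with several interferon response element cores, in the same format as above, from chr19:34583279-34583528, plus strand, of GRCm38.p6.
Ifit3 promoter: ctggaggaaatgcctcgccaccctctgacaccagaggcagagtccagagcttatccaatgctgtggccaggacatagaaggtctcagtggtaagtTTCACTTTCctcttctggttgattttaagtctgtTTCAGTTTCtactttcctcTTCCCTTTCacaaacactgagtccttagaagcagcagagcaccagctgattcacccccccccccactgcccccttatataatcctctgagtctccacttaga
It holds 3 matches, all on the reverse strand. Of the 30 listed type I interferon genes with a window, 14 hold a match (46.7%), against 8.18% of all genes with a window.

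Antigen presentation genes went both ways at this age, with none called. The 14 tested MHC class II genes had a median log2 fold change of 0.07, 10 values above 0 and a range from -3.96 for H2-Ob to 1.75 for the costimulatory receptor Cd40, both with SE over 1. Cd74, the class II invariant chain, differed by 0.05, H2-Ab1 by 0.08, H2-Aa by 0.30 and H2-Eb1 by 0.01, each with adjusted p = 0.998 and a sign that changed when single libraries were left out. The exception by unadjusted p was Ifi30, a lysosomal thiol reductase that prepares antigens, at 688, 1102 and 680 CPM in CReCOM and 286, 291 and 529 CPM in WT (1.14, SE 0.29, adjusted p = 0.373). The 14 tested MHC class I genes also had a median of 0.07, and 1 was higher at the unadjusted threshold, the peptide transporter Tap1 (1.18, adjusted p = 0.73). Complement genes were mixed, with 4 of 12 values above 0, and C1qa and C1qb at -0.56 and -0.14.

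Chemokines made by activated myeloid cells and by NK cells were lower in mean. Ccl4 was at 305, 203 and 289 CPM in CReCOM and 1157, 798 and 530 CPM in WT (log2 fold change -1.63, SE 0.39, adjusted p = 0.368). Ccl3 was at 157, 112 and 130 CPM against 389, 411 and 299 CPM (-1.47, SE 0.35, adjusted p = 0.368). Neither overlapped between genotypes. With Ccl5 they were the 3 of 17 tested chemokine and receptor genes that were lower at the unadjusted threshold. Over all genes tested, 2.01% were lower at it. The list as a whole had a median of -0.20 with 8 values above 0.

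Several genes of the immediate response to stimulation went with them. Dusp5, a phosphatase that limits ERK signalling, was at 263, 188 and 319 CPM in CReCOM and a narrow 563, 557 and 569 CPM in WT (-1.14, SE 0.28, adjusted p = 0.368). Dusp2, a related phosphatase, was at 443, 349 and 880 CPM against 1795, 974 and 1259 CPM (-1.26, adjusted p = 0.368), and Jund, a subunit of the AP-1 factor, at 759, 838 and 559 CPM against 1592, 1268 and 1220 CPM (-0.92, adjusted p = 0.379). All 3 had CReCOM libraries below every WT library. In the list of 26 immediate early and heat shock genes, 20 values were below 0, with a median of -0.29. Some members such as Fos (0.21) were above 0. Of the 26, 3 were lower at the unadjusted threshold and 8 lower without overlap, against 2.01% and 7.45% of all genes tested. Without CReCOM replicate 3 the 3 became 6, and the median ranged from -0.40 to -0.19 with single libraries left out.

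Of 20 tested NF-kB targets and cytokines, 3 were lower at the unadjusted threshold and 1 higher. The 3 lower genes were Cd83, Nfkbiz and Nfkbia. Over all genes tested, 2.01% were lower and 3.09% higher at that threshold. Cd83, an activation marker of antigen-presenting cells, was at 205, 89.2 and 194 CPM in CReCOM and 470, 303 and 550 CPM in WT (-1.44, SE 0.39, adjusted p = 0.434). Nfkbiz, a nuclear co-regulator of NF-kB, was at 385, 278 and 445 CPM against 829, 603 and 700 CPM (-0.94, adjusted p = 0.426). In the opposite direction, Il1rn, which encodes the antagonist of the interleukin-1 receptor, was at 175, 106 and 373 CPM against 44.7, 22.9 and 20.9 CPM (2.90, SE 0.93, adjusted p = 0.565). The cytokine genes Il1b (-0.07) and Tnf (-0.30) overlapped between genotypes.

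**Figure D4:**
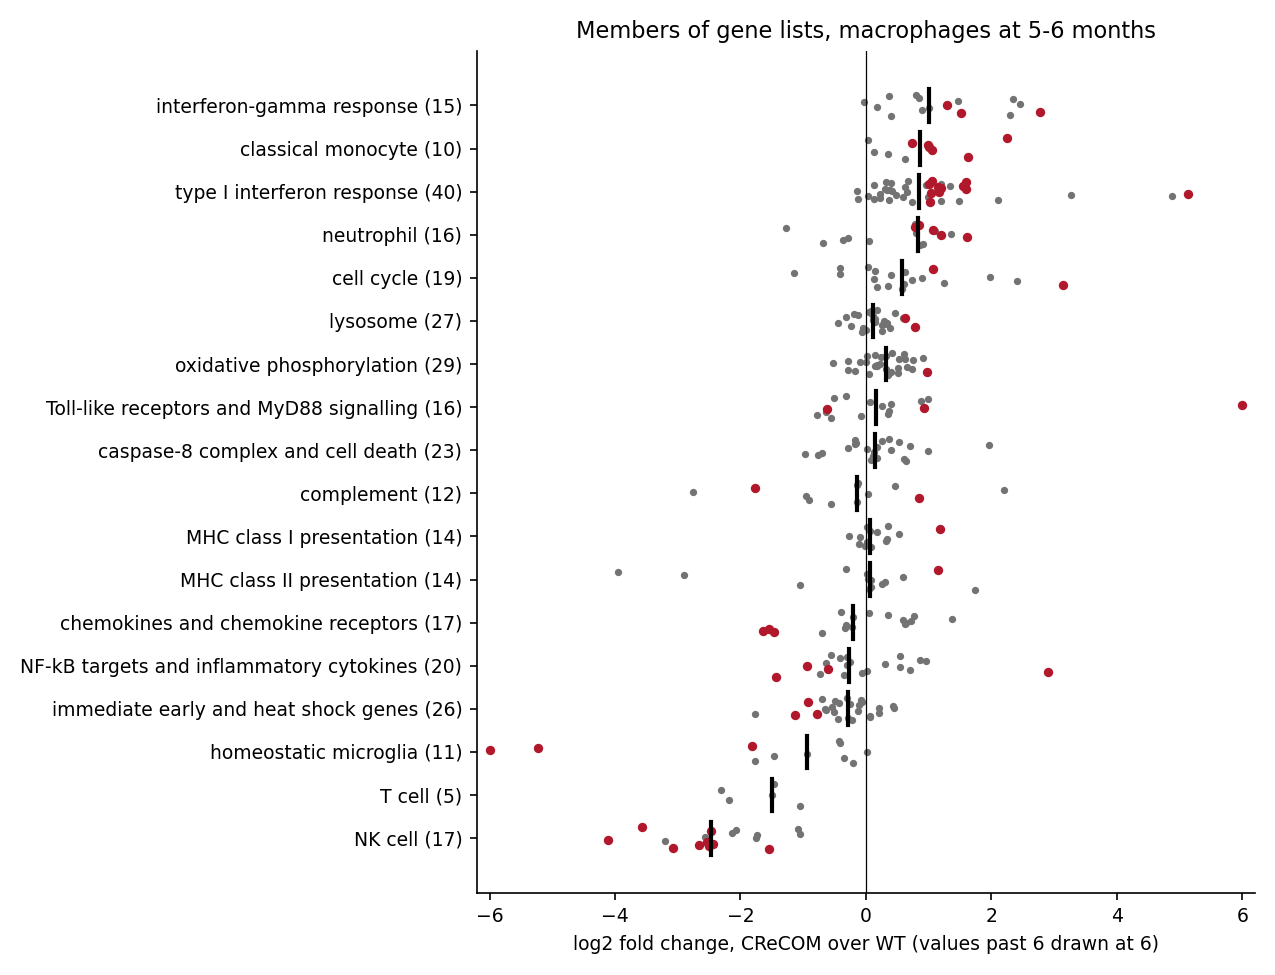
Log2 fold change of CReCOM over WT (x axis, values past 6 drawn at 6) for the tested members of each gene list, with the number tested in brackets, macrophages at 5-6 months. Red points passed the unadjusted threshold, the black bar is the median of a list, and NK cell markers have the bar at -2.47 against 0.85 for type I interferon genes.

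The remaining lists held few genes at the unadjusted threshold, which 3.09% of all genes tested passed as higher and 2.01% as lower. Of 29 oxidative phosphorylation genes 24 had values above 0, with a median of 0.31 and 1 gene higher at the unadjusted threshold. Of 19 tested cell cycle genes 2 were higher at the unadjusted threshold. Top2a, the topoisomerase of dividing cells, was at 172, 272 and 250 CPM in CReCOM and 51.4, 159 and 117 CPM in WT (1.07, adjusted p = 0.91). Of the 19 genes, 16 were above 0 with a median of 0.57. That median fell to 0.23 without WT replicate 1 and to 0.35 without CReCOM replicate 4. Lists of lysosomal genes (27 tested), lipid handling (22), adhesion (27) and Fc receptors (10) had medians of 0.12, -0.17, 0.06 and 0.24, with at most 2 members at the unadjusted threshold in any of them.

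Genes named in the study's text were looked up as well. Bcl2, an inhibitor of apoptosis, had a log2 fold change of 0.61, the nucleic acid sensor Tlr7 -0.51, the lipopolysaccharide receptor Tlr4 0.87 and the chemokine Ccl6 -0.33, each with adjusted p = 0.998.

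Other single genes were among those with the smallest p. Fpr2, a receptor for formylated bacterial peptides on phagocytes, was at 423, 116 and 271 CPM in CReCOM and 13.3, 66.7 and 53.6 CPM in WT (2.58, SE 0.62, adjusted p = 0.368), but its annotation overlaps that of Fpr3 on the same strand. Ccnd2, which encodes cyclin D2, was at 63.2, 64.5 and 224 CPM against 335, 429 and 420 CPM (-1.75, SE 0.43, adjusted p = 0.368). The membrane protein gene Ms4a6b (1.40), the actin-severing factor Cfl1 (0.84) and the reductase gene Akr1a1 (1.09) were higher without overlap, at adjusted p of 0.368 to 0.461. The annotations of Cfl1, Ms4a6b, Ccnd2, Jund, Dusp5 and Ifi30 overlap those of other genes, and with the strand of counting not given their reads cannot be told apart.

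The CReCOM effect at 5-6 months was then set against that at 11-12 months, in the same model of 12 libraries. The test of the difference between the 2 effects called 6 of 6272 genes (0.0957%). In 5 of them (0.0797%) the CReCOM over WT value was higher at the younger age and in 1 (0.0159%) lower, and 4 of the 5 are on the list of neutrophil markers. S100a9 had a log2 fold change of 0.85 at 5-6 months and -1.89 at 11-12 months, a difference of 2.74 (SE 0.47, adjusted p = 0.0418). At the older age S100a9 was at 1095, 3244 and 1656 CPM in CReCOM replicates 1, 3 and 4 and at 8738, 8809 and 4363 CPM in WT replicates 2, 4 and 7. S100a8 (0.78 and -1.86, adjusted p = 0.0482), Ngp (1.08 and -1.62, adjusted p = 0.0418) and Lcn2 (1.61 and -1.99, adjusted p = 0.0434) showed the same turn.

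Neutrophil marker sums differed between ages in both genotypes. The summed neutrophil markers were 15120 ± 2532 CPM in CReCOM and 8640 ± 2050 CPM in WT at 5-6 months, and 6510 ± 3714 CPM and 24156 ± 10272 CPM at 11-12 months (SD, n = 3 each). The 4 genes are themselves 74.9% to 84.5% of that sum in the 12 libraries, so the sum largely repeats their values. The other 14 markers summed to 2187 to 2948 CPM in CReCOM and 1427 to 2515 CPM in WT at 5-6 months, and to 680 to 1968 CPM and 1916 to 7804 CPM at 11-12 months, with the genotypes overlapping at both ages. The part of neutrophils in these values was not tested. The other called gene with a higher value at the younger age, Klra4, was at 0 counts in 2 of the older CReCOM libraries and at 4 counts (0.614 CPM) in replicate 3, so its fitted difference of 6.91 (adjusted p = 0.0434) depends on the prior count, and it was 10.33 without that replicate.

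C1qa, a subunit of the complement component C1q that macrophages and microglia make, was the gene with a lower value at the younger age. At 5-6 months it was at 160, 171 and 253 CPM in CReCOM and 141, 310 and 400 CPM in WT, with overlap (-0.56, SE 0.38). At 11-12 months it was at 444, 435 and 378 CPM in CReCOM and 42.2, 69.8 and 33.5 CPM in WT (3.10, SE 0.41). The difference of -3.66 (SE 0.55) had an adjusted p of 0.0257. Homeostatic microglia markers summed to 884 to 1370 CPM in CReCOM and 1621 to 1705 CPM in WT at 5-6 months. At 11-12 months they summed to 1263 to 1934 CPM in CReCOM and 919 to 979 CPM in WT. The part of microglial RNA in the C1qa values was not tested. Without single libraries the 6 calls became 0 to 12, with 0 left without CReCOM replicate 3 or 4 or WT replicate 2 or 6 at 5-6 months or without WT replicate 2 at 11-12 months, 1 (C1qa) without CReCOM replicate 1 or 4 or WT replicate 4 at 11-12 months, 3 without WT replicate 1 at 5-6 months, and 12 without CReCOM replicate 3 at 11-12 months.

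The 3 NK genes did not pass the test of a difference between ages. Their log2 fold changes at 11-12 months were -3.87 for Il2rb, -3.39 for Gzma and -2.80 for Nkg7, against -2.44, -2.50 and -2.47 at 5-6 months (adjusted p of the difference 0.892 or more). The NK marker sum was 4332 ± 1589 CPM in WT and 526 ± 243 CPM in CReCOM at the older age. Interferon genes had a median of 0.85 at 5-6 months and 1.14 at 11-12 months. MHC class II genes had 0.07 and 1.03, and homeostatic microglia markers -0.94 and 0.88. No member of the interferon, MHC class II or homeostatic microglia lists was called for a difference between ages. Among the NK markers, Klra4 was.

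**Figure D5:**
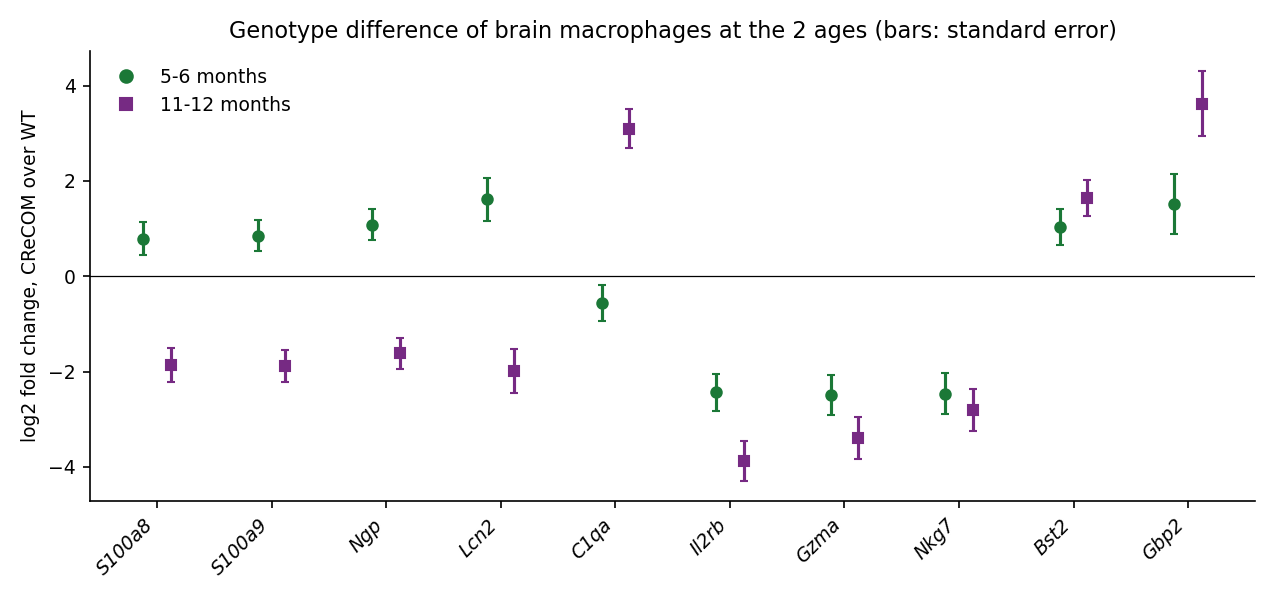
Log2 fold change of CReCOM over WT macrophages (y axis, error bars 1 SE) at 5-6 months (green circles) and 11-12 months (purple squares) for 10 genes. S100a8, S100a9, Ngp and Lcn2 lie above 0 at the younger and below 0 at the older age, C1qa goes from -0.56 to 3.10, and Il2rb, Gzma and Nkg7 lie below 0 at both.

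Finally, the CReCOM effect in macrophages was compared with that in microglia of the same age, over 5675 genes kept in both cell types and with all 28 libraries in the model. The test of the difference called 6 genes (0.106%), 3 with a higher value in macrophages (0.0529%) and 3 with a lower one (0.0529%). Camk2n1, an inhibitor of the kinase CaMKII, was at 5.12, 9.47 and 31.7 CPM in CReCOM macrophages and 106, 68.2 and 157 CPM in WT macrophages, against 238 to 304 CPM and 210 to 292 CPM in CReCOM and WT microglia (difference of log2 fold changes -2.92, SE 0.55, adjusted p = 0.0361). Bin1, a membrane-bending protein, was at 21.6, 35.5 and 28.4 CPM against 107, 47.2 and 146 CPM in macrophages and 283 to 428 CPM in microglia (-1.99, SE 0.41, adjusted p = 0.055). Every WT microglia library was above every WT macrophage library in both genes, 2.32-fold in mean for Camk2n1 and 3.40-fold for Bin1. The microglial marker sum was lower in each CReCOM macrophage library than in each WT one. Within WT it did not follow the genes, as replicate 2 had the highest sum (1705 CPM) but the lowest Camk2n1 and Bin1. The part of microglial RNA was not tested. The gene Sall3 was at 0 CPM in all 3 CReCOM macrophage libraries but also in WT replicate 2, with 96.7 and 73.6 CPM in WT replicates 1 and 6, so its fitted difference of -11.44 depends on the prior count.

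The 3 genes with a higher value in macrophages were nearly silent in the WT macrophages of this age. Parp2, a DNA damage sensor, was at 36.2, 35.5 and 73.1 CPM in CReCOM and 2.97, 0.647 and 2.70 CPM in WT (log2 fold change 4.51, SE 1.02, adjusted p = 0.368), against 44.3 to 96.0 CPM and 26.8 to 99.5 CPM in CReCOM and WT microglia. Cdk5rap3, a regulator of protein modification by UFM1, was at 56.6, 68.1 and 36.6 CPM in CReCOM and 1.98, 0 and 0.450 CPM in WT, and the zinc finger gene Zfp839 at 26.1, 19.7 and 16.8 CPM in CReCOM and 0.494, 0.216 and 0 CPM in WT. Cdk5rap3, Zfp839 and Bin1 also overlap other annotated genes. The 3 WT libraries of Zfp839 were all under 3 counts, and set against that level the CReCOM mean was at least 30.3-fold higher. At 11-12 months the genotypes overlapped in all 3 genes, at 17.6 to 102 CPM for Parp2, 4.53 to 36.1 CPM for Cdk5rap3 and 14.1 to 59.1 CPM for Zfp839. The differences between cell types were 4.53 for Parp2 (adjusted p = 0.0775), 8.10 for Cdk5rap3 (0.0361) and 6.45 for Zfp839 (0.0775). The count of 6 became 17 without WT macrophage replicate 6, 10 without WT macrophage replicate 2 and 3 without any 1 of CReCOM microglia replicates 2, 3 and 5.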

How the data were processed

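The macrophages and microglia sorted from brain were measured by RNA-seq, deposited as a table of read counts per gene and a table of CPM for each cell type. The authors prepared 3′ QuantSeq libraries, converted the output of a NextSeq 500 with bcl2fastq, trimmed with bbduk, aligned with STAR to GRCm38 (mm10) and counted with HTSeq, and they deposited the counts with no normalization. The deposited CPM are those counts per 1000000 assigned reads. Versions and the strand setting are not given in the sources used here, so genes that overlap cannot be told apart.

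From the deposited counts, edgeR 4.0.16 (R 4.3.3) fitted a quasi-likelihood model with TMM scaling to all 12 macrophage libraries with 4 group means. Genes were kept where log2(maximum group mean CPM + 1) was over 5, which left 6272 of 49671. A gene was called at a Benjamini-Hochberg adjusted p under 0.1 with a fold over 1.5. SE is the log2 fold change divided by the square root of F. The comparison with microglia used 28 libraries, 8 group means and 5675 genes, with a minimum of 4 for microglia. Young CReCOM and WT macrophages share no replicate number. The script was tested on simulated data. DESeq2 1.42.0, limma 3.58.1, other scalings, filters and sets of libraries were alternatives, and so was leaving out each library.

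Libraries held 4045036 to 8344189 counts at 5-6 months in macrophages. Values of 3 counts or fewer were treated as at the detection level, and such levels cover counting error only. The genes named are the 12 per direction with the smallest p or largest called change and no overlap between genotypes, list members with the smallest p, genes named in the study's text, Casp8, genes near Itgax and the leading genes of each test of a difference. Other list members, such as Isg15, Fos, Il1b, Tnf, Ccr2, Vcan, Retnlg, Cflar and Cd3e, were named after their values were seen. Some genes that these rules name are not reported here. The comparison, the gene lists and the motif were chosen with earlier results of these data known. Promoter sequences are from RefSeq on GRCm38.p6, the build of the files, and gene positions from GENCODE M21.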

Additional observations from a re-analysis of the deposited data

Results flagged for a closer look

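The test of a difference between the CReCOM effects at the 2 ages called 6 genes in macrophages, given here as the log2 fold change of CReCOM over WT at 5-6 months minus that at 11-12 months. The neutrophil genes S100a9 (2.74), Ngp (2.70), S100a8 (2.65) and Lcn2 (3.60) had the higher value at 5-6 months and make up 74.9% to 84.5% of the summed neutrophil markers. Klra4 (6.91) rests on older CReCOM libraries at 0 to 4 counts. C1qa (-3.66) had the lower value at 5-6 months, and in WT it was at 141 to 400 CPM at 5-6 months and 33.5 to 69.8 CPM at 11-12 months. Summed microglia markers in the macrophage libraries turned in the same direction between ages, and their part in C1qa was not tested.

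The test of a difference between macrophages and microglia at 5-6 months called another 6, given as the effect in macrophages minus that in microglia. Camk2n1 (-2.92), Bin1 (-1.99) and Sall3 (-11.44) had the lower value in macrophages. Cdk5rap3 (8.10), Zfp839 (6.45) and Parp2 (4.53) had the higher one, with low levels in WT macrophages at 5-6 months only. Among them only Zfp839 was at 3 counts or fewer in every WT library of that age.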

How the results depend on the processing

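The counts of genes lower and higher in CReCOM macrophages were 3 and 0 with RLE factors, library sizes alone, filterByExpr, limma or an adjusted p under 0.05. With DESeq2 they were 33 and 45, with no filter on low counts 18 and 18, with a model of all 28 libraries, chosen after seeing the data, 12 and 12 (none of the 17 NK markers, and so none of the 3 called genes, is among the 5675 genes of that model), with the 6 libraries alone 3 and 1 (Ngp), and at the unadjusted threshold, with its fold over 1.5, they were 126 and 194. The cause of the difference between tools was not tested. Without 1 library at a time, 0 to 3 genes were lower and 0 to 1 higher. The 3 without CReCOM replicate 5 were Gzma, Ccnd2 and Dusp2, the 1 without WT replicate 6 was Igha, the 1 without WT replicate 2 was Il2rb, and the higher gene without WT replicate 2 was Slfn4. Of the 12 leading higher genes, 12 were called by DESeq2 and 6 without the filter. Il2rb, Gzma and Nkg7 were called in 8, 8 and 7 of 13 alternatives, and their log2 fold changes stayed between -2.85 and -2.22.

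The 6 genes that differed between ages became 49 with DESeq2, 26 with no filter and 289 at the unadjusted threshold, and 0 to 12 without 1 library. The 6 that differed between cell types became 26 with DESeq2, 2 with limma, 3 with filterByExpr, 124 with no filter, 11 with the 14 libraries of 5-6 months, 2 at an adjusted p under 0.05, 246 at the unadjusted threshold, and 3 to 17 without 1 library. The 6 marker lists that did not overlap were 7 to 9 without 1 library, which leaves fewer values to overlap. Among the genes named, 8 changed sign under some alternative, and none of these was called. Cxcr2 became -0.18 with limma, and H2-Eb1 became -0.025 with DESeq2 or RLE factors and -0.11 with limma. Without 1 library, values ran from -0.40 to 0.18 for C1qb, -0.22 to 0.30 for Cd74, -0.53 to 0.49 for Cxcr2, -0.0882 to 0.60 for H2-Aa, -0.17 to 0.35 for H2-Ab1, -0.36 to 0.35 for H2-Eb1, -0.24 to 0.12 for Il1b and -0.49 to 0.051 for Itgax. In the test between cell types 5 replicate numbers occur in both cell types of a genotype, but no label says that a number marks a mouse. Residuals of the 5 pairs correlated at -0.032 to 0.061, and 5 of 10 libraries correlated best with their own number. With the number as a replicate block 0 genes were called, at differences of -2.94 for Camk2n1, 8.14 for Cdk5rap3, 5.87 for Zfp839, 4.90 for Parp2, -1.55 for Bin1 and -9.01 for Sall3 and adjusted p of 0.411 to 0.997 (edgeR). No paired analysis of CReCOM against WT was possible because these libraries share no replicate number. Macrophage libraries were shallower in WT, and genes near 3 counts there have poorly fixed fold changes.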

Other observations

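Genes of the disease-associated microglia program, which phagocytes raise near damaged tissue, had a median log2 fold change of 0.18 at 5-6 months. Of 26 tested, 16 were above 0 and 4 were higher in CReCOM macrophages at the unadjusted threshold. Over all genes tested, 3.09% were higher at it. Lgals3, which encodes galectin-3, was at 715, 895 and 617 CPM in CReCOM and 312, 528 and 561 CPM in WT (log2 fold change 0.65, adjusted p = 0.878, edgeR). Fth1, the heavy chain of ferritin, was at 2519, 2225 and 1881 CPM against 1740, 1604 and 995 CPM (0.61, adjusted p = 0.714). In both genes every CReCOM library was above every WT library. Of the 26 genes, 3 were higher without overlap, against 8.20% of all genes tested. Gpnmb, a glycoprotein of lipid-laden macrophages, was at 41.9, 6.59 and 19.8 CPM against 1.24, 0.216 and 0.225 CPM, where WT was at or near 3 counts (adjusted p = 0.736), and Spp1, which encodes osteopontin, overlapped.

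Of 16 tested genes of Toll-like receptor signalling 9 had log2 fold changes above 0 and 7 below, with a median of 0.16. Without overlap 3 were higher (Myd88, Tlr1 and Irf5) and 3 lower (Cd14, Irak4 and Unc93b1). Over all genes tested, 8.20% were higher and 7.45% lower without overlap. Myd88, the shared adaptor, was at 234, 334 and 278 CPM in CReCOM and 181, 99.7 and 165 CPM in WT (0.92, adjusted p = 0.736). Tlr1 was at 8.69, 47.5 and 8.40 CPM in CReCOM and at 0.216 CPM or less in WT, at least 31.3-fold higher when WT is set at 3 counts per library, or at least 12.4-fold without CReCOM replicate 4 (adjusted p = 0.526). The lipopolysaccharide co-receptor Cd14 was at 313, 324 and 297 CPM against 396, 573 and 401 CPM (-0.56, adjusted p = 0.934). None of the 16 was called. Irf8, a transcription factor of macrophages and dendritic cells, was lower in mean with overlap (-0.62, unadjusted p = 0.042). The 11 tested scavenger and mannose receptor genes had 7 values above 0 and a median of 0.42, and their list summed to 2304, 2824 and 2076 CPM in CReCOM and 1745, 1727 and 1648 CPM in WT, 1.41-fold higher in mean without overlap (exact permutation p = 0.1, the smallest possible, n = 3 each). Chil3 was the highest of them (1.64) and Mgl2 the lowest. Chil3 is also a listed classical monocyte marker, and without it the sum of the list overlapped between genotypes. Mgl2, a lectin of some dendritic cells and macrophages, was at 65.9, 38.8 and 35.5 CPM in CReCOM and 187, 172 and 267 CPM in WT (-2.16, SE 0.94, adjusted p = 0.878). Of 11 tested genes that the study's text names from a signature of neuropsychiatric lupus, 9 were above 0 with a median of 0.41, and Slfn2 and Phf11b were higher without overlap at the unadjusted threshold (adjusted p = 0.719 and 0.73). The study chose that list as genes higher in microglia, of CReCOM mice at 11-12 months and of another lupus-prone strain. The macrophage libraries compared here had no part in that choice. The list comes in part from the same series, and its direction as a set was not tested.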
